A study of Mus musculus with 2 samples.

Results

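The genes described here encode the translation initiation and elongation factors of the mouse, together with Tpt1, the translationally controlled tumour protein. They were taken as the autosomal protein-coding genes whose symbol starts with Eif or Eef, plus Tpt1; the eIF2 kinase genes and Eif2s1 were left out by that rule, and its restriction to autosomes left out genes on the sex chromosomes. The annotation holds 62 such genes, of which 61 had values among the 43346 Ensembl genes and 21461 nuclear protein-coding genes of the tables; Eef1akmt4 was not analysed here. The rule itself uses symbols and annotation, not levels, although it was set with earlier results of these data known.

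Initiation factors bring the small ribosomal subunit, the initiator tRNA and the capped mRNA together. The eIF4 factors bind and unwind the cap region, eIF3 bridges the mRNA to the ribosome, eIF1, eIF1A and eIF5 act in start codon selection, and eIF2 carries the initiator tRNA and is recharged with GTP by eIF2B. Elongation then runs on eEF1A, which delivers aminoacyl-tRNA, its exchange complex eEF1B, and eEF2, which moves the ribosome along. Red cell precursors make large amounts of globin by this machinery before they lose their nucleus, and several mRNAs of the machinery are themselves controlled through a run of pyrimidines at their 5′ end.

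The cells were CFU-Ery, dividing erythroid progenitors, taken as primary cells from male C57BL/6J mice of 5 to 6 weeks; the labels name a bone marrow isolation protocol, no treatment and no genetic change. Total RNA was sequenced in 2 libraries, biological replicates 1 and 2, each from 1 ng of RNA with spike-ins and a size range of 150 to 400. They form 1 group with no control or contrast, so all results are levels and their spread, without tests. Both carry the same donor record but separate biosamples, so their spread may be technical.

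Replicate 1 held 143491647 expected counts and replicate 2 held 110634458; 4717790 (3.29%) and 4093202 (3.7%) of them fell on nuclear protein-coding genes. Levels are given in TPM, a read count divided by transcript length and put on a fixed total over all entries of a table, so that 1 TPM corresponds to 43.1 and 37.0 TPM when only nuclear protein-coding genes are summed ("rescaled"). All 8 erythroid markers reached 1 TPM in both libraries, with medians of 56.8 and 61 TPM, led by Hbb-bs and Slc4a1. All 6 granulocyte and monocyte markers also did, with medians of 62.5 and 81.0 TPM, above the erythroid medians in both libraries. Their summed level was 511 and 693 TPM, against 2605 and 2992 for the erythroid markers, of which Hbb-bs alone held 2287.36 and 2622.74. At least 1 TPM in both was also reached by 3 of 5 macrophage, 2 of 4 B lymphoid and 1 of 4 T and NK lymphoid markers, Cd8a being at 0 counts. No megakaryocyte, stem cell or stromal marker of 4 each reached 1 TPM in both. Translation factors are made by all of these cells, and the part of the other cells in the levels below was not tested. In such bulk samples, fewer cells of a type and less RNA per cell cannot be told apart.

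The start regions of the most abundant members are shown first because the run of C and T at the first transcribed base is the feature by which mRNAs of the translation machinery are often grouped. Each line holds 15 bases before and 15 bases from the annotated start on, 5′ to 3′ in the direction of transcription, from RefSeq on GRCm38.p6, with the longest run of C or T in capitals. Eef1a1, Tpt1 and Eif1 are the 3 most abundant members, Eif5a (here the most upstream of its 6 listed starts) the fifth, and Eef1a2 the silent paralog of Eef1a1; Eif3f and Eef2 were chosen after their values were seen.
Eef1a1, chr9:78481710-78481739, minus strand: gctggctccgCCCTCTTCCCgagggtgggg
Tpt1, chr14:75845241-75845270, plus strand: gtcaccgctgacgacagTTCCgggggagcc
Eif1, chr11:100319934-100319963, plus strand: gcgCTggcgtcacaggggcggctatataag
Eif5a, chr11:69921944-69921973, minus strand: aagtaccgaagccgggatggttgtaaTCCg
Eef2, chr10:81176616-81176645, plus strand: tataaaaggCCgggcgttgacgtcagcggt
Eif3f, chr7:108934400-108934429, plus strand: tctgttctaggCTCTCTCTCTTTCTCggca
Eef1a2, chr2:181157001-181157030, minus strand: TCTCTCCTggtctgcgttctcgctcactgg

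A start was listed for 45 of the 61 members, 59 starts in all. Only the start of Eif3f had a C as its first base followed by at least 4 C or T, which is 1.69% of member starts, against 2.21% of all 21263 starts of protein-coding genes in the table. A run of at least 6 C or T anywhere in the 30 bases was held by 27.1% of member starts and 28.8% of protein-coding starts. Within 100 bases around the start, CTCTT or CTTTT, read in the direction of transcription, occurred at 16.9% of member starts and 20.1% of protein-coding starts. A run of at least 8 C or T in the same 100 bases was held by 39% of member starts and 35.4% of protein-coding starts. Members were thus lower in 3 of these 4 measures and higher in the last, by no more than 4 percentage points. These matches describe the annotated base only, because the base at which transcription began in these cells was not measured. In the window of Eef1a1 a run of 10 C or T lay across the start, beginning 5 bases before it, while the windows of Tpt1 and Eif1 held no run of 6.

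Translation factor genes were well represented. Of the 61, 34 reached 1 TPM in both libraries (12.6% of all nuclear protein-coding genes did), 5 did in a single library (Eif2b5, Eif1b, Eef2k, Eif4b and Eif4ebp3), and 22 stayed below in both. Their median was 1.33 TPM in replicate 1 and 1.54 TPM in replicate 2, against 0.01 and 0.02 over all nuclear protein-coding genes. On the rescaled values the medians were 57.4 and 57.0 TPM, and 58 members reached 1 (44.6% of all). Only 3 members had 0 counts in both libraries (42.1% of all genes did): Eef1a2, Eif4e1b, an eIF4E paralog known from the germ line, and the methyltransferase gene Eef1akmt3. Another methyltransferase gene, Eef1akmt2, averaged under 20 counts (14 and 12), and the other 57 members averaged 20 or more (42.3% of all genes did).

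A few genes carried most of the members' TPM. The members summed to 353 TPM in replicate 1 and 386 in replicate 2, which was 1.48% ± 0.0683 (SD, n = 2) of all nuclear protein-coding TPM, and 1.20% of the expected counts in each library. Eef1a1, Tpt1 and Eif1 made up 64.8% and 64.3% of the members' TPM. Their part of the members' expected counts, 56652 and 48998, was smaller. Eef1a1 held 15742 and 13531 of these counts, Tpt1 5365 and 4799, and Eif1 3980 and 3404. These 3 were among the 100 most abundant nuclear protein-coding genes, and 14 members were among the first 1000. At least 10 TPM in both libraries was reached by 4 members, the 3 named and Eif4g2 (1.25% of all genes reached it).

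**Figure D1:**
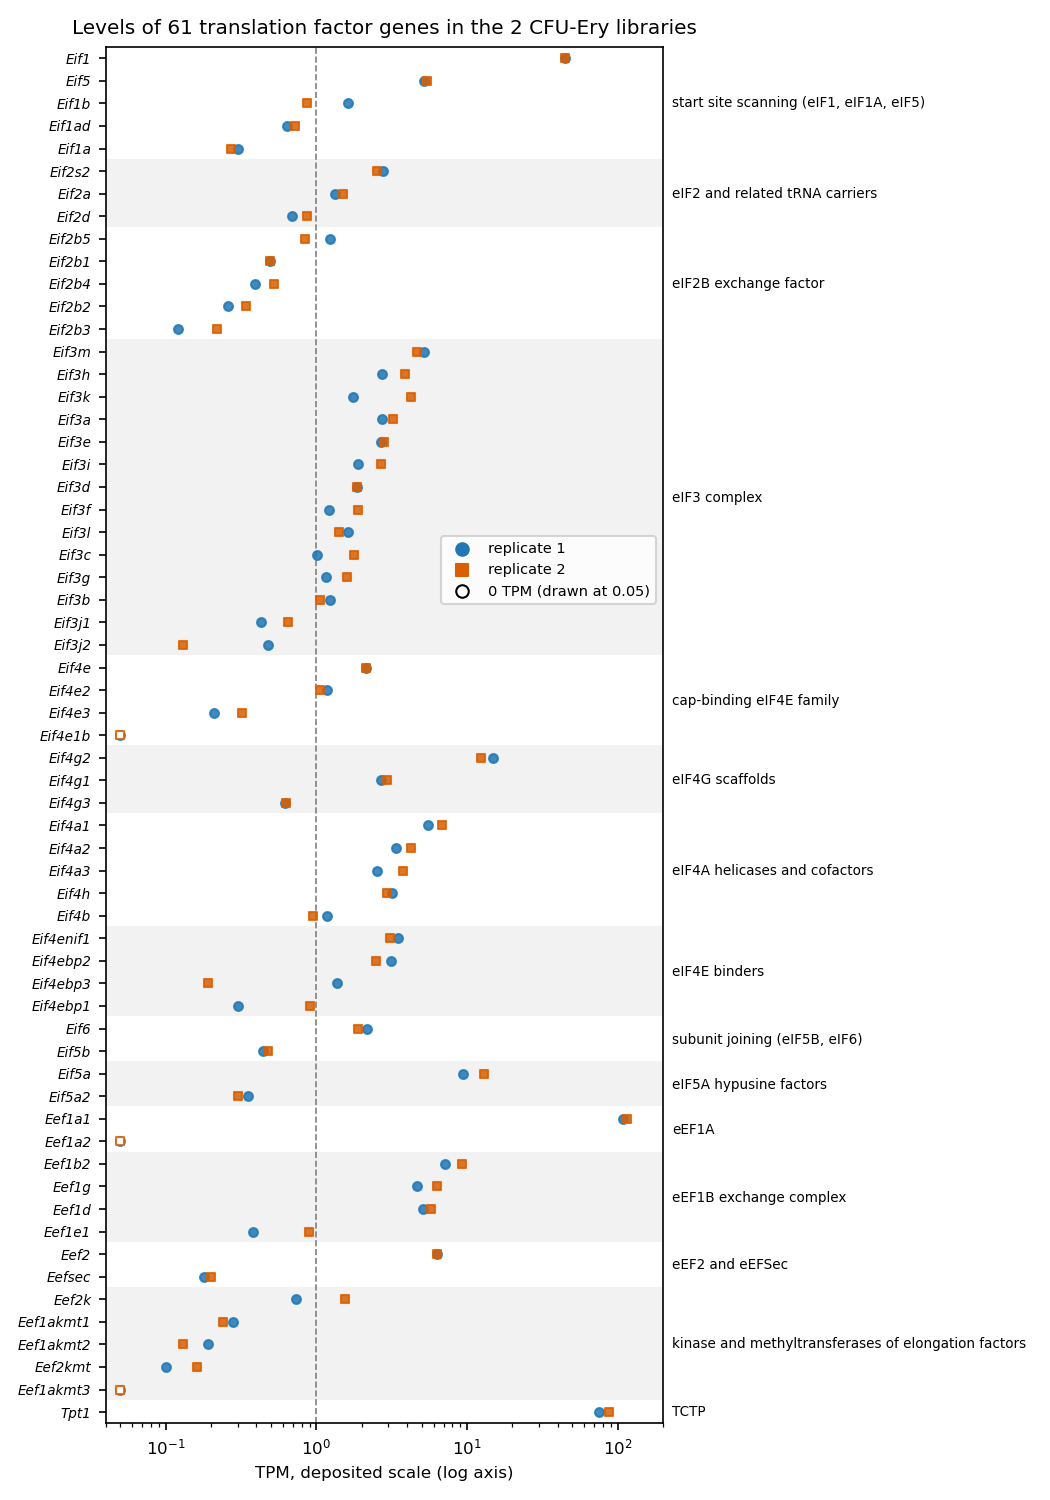
TPM of each of the 61 members (deposited scale, log axis) in replicate 1 (circles) and replicate 2 (squares), grouped by role, with 3 members of 0 TPM drawn as open symbols at the left edge and a dashed line at 1 TPM. Eef1a1, Tpt1 and Eif1 stand apart on the right at over 40 TPM, and no eIF2B subunit lies above the line in both libraries.

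Among the start site scanning factors, Eif1, whose product keeps the ribosome open until the start codon is met, stood at 45.06 TPM in replicate 1 and 44.75 in replicate 2 (44.9 ± 0.219). Its paralog Eif1b stood at 1.63 and 0.86 TPM, so Eif1 was 27.6-fold and 52.0-fold higher in the same libraries. The ratio was 12.7 and 27.9 on transcripts annotated as protein-coding alone. Eif5, the GTPase activator of eIF2, had 5.17 and 5.39 TPM. Eif1a, a member of the eIF1A family and the lowest of this role, had 0.3 and 0.27 TPM. Both libraries thus held the same order, with Eif1 far above the other 4 genes.

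Of the eIF2 and related tRNA carrier genes, Eif2s2, the beta subunit of eIF2, was highest at 2.75 and 2.54 TPM. Eif2a, an alternative tRNA carrier that is not the alpha subunit of eIF2, had 1.33 and 1.51 TPM. Eif2d, which can also deliver tRNA, was lowest at 0.69 and 0.87 TPM. On protein-coding transcripts alone the gaps were wider, with Eif2s2 at 2.51 and 2.30 TPM, Eif2a at 0 and 0.750 and Eif2d at 0.0600 and 0.200. With all reads on the transcript with the longest coding stretch, they had 2.82 and 2.53, 0.966 and 1.19, and 0.938 and 0.777 TPM. By gene TPM, the genes of eIF2B, the exchange factor of eIF2, had medians of 0.390 and 0.490 TPM, against 1.33 and 1.51 for these carriers. Of the 5 eIF2B subunit genes, 0 reached 1 TPM in both libraries. The highest, Eif2b5, which carries the catalytic domain, had 1.23 and 0.84 TPM, and the lowest, Eif2b3, had 0.12 and 0.22 TPM from 10 and 57 counts. This order depends on transcript length, since the 821-base Eif2b5-202 held 91.98% and 84.52% of the TPM of Eif2b5. With all reads on the transcript with the longest coding stretch, Eif2b5 had 0.353 and 0.289 TPM and Eif2b3 0.0527 and 0.390. By mean, Eif2b5 was then not the highest of the subunit genes and Eif2b3 not the lowest.

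The genes of eIF3, the largest initiation factor, stood within a narrow band. Leaving aside the loosely bound eIF3j and its 2 gene copies, 12 subunit genes ranged from 1.01 to 5.21 TPM in replicate 1 and from 1.05 to 4.68 in replicate 2, a span of 5.16-fold and 4.46-fold. Of these, 11 lay within 2-fold of their common median in replicate 1 (1.81 TPM) and 10 in replicate 2 (2.29 TPM). Eif3m was highest in both libraries (5.21 and 4.68 TPM), so the upper end of the span rests on it. In replicate 1 its 494-base transcript Eif3m-204 held 39.14% of this TPM from 97 counts. With all reads on the transcript with the longest coding stretch, Eif3m had 2.99 and 3.70 TPM. It then stayed highest in replicate 1, while Eif3k (4.26) and Eif3h (3.88 TPM) were higher in replicate 2. The lowest differed between the libraries, Eif3c (1.01 and 1.77 TPM) in replicate 1 and Eif3b (1.23 and 1.05 TPM), a core scaffold subunit, in replicate 2. Eif3a, the largest scaffold subunit, had 2.71 and 3.2 TPM and Eif3h 2.72 and 3.88. The subunit genes Eif3e (2.68 and 2.8), Eif3i (1.89 and 2.69), Eif3d (1.87 in both), Eif3f (1.22 and 1.88), Eif3l (1.63 and 1.42) and Eif3g (1.16 and 1.59 TPM) lay between. The widest gap between libraries in this complex, outside eIF3j, was that of Eif3k (1.75 and 4.26 TPM from 147 and 279 counts). Eif3j1 and Eif3j2 stood at 0.43 and 0.65 TPM and at 0.48 and 0.13 TPM, but 95.8% of the 25-base words of Eif3j2 also occur in other genes, above all Eif3j1, so reads of these copies were divided by estimation and their separate levels are uncertain.

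The cap-binding group was led by its scaffold and helicase genes. Eif4g2, which encodes DAP5, a scaffold lacking the binding site for eIF4E, had 14.77 and 12.42 TPM (13.6 ± 1.66). That was 5.47-fold and 4.25-fold above Eif4g1, the canonical scaffold gene (2.7 and 2.92 TPM), and 3.00-fold and 2.92-fold above it on protein-coding transcripts alone. Eif4g3 was lowest at 0.62 and 0.63 TPM. The helicase gene Eif4a1 had 5.54 and 6.86 TPM and its close paralog Eif4a2 3.38 and 4.26 TPM, a log2 ratio of 0.71 (95% counting interval 0.58 to 0.85) and 0.69 (0.55 to 0.82). An intronic snoRNA gene on the same strand, Gm22988 (173 and 216 TPM), overlaps Eif4a1, and how reads there were divided is not known. Eif4a3, a helicase of the exon junction complex rather than of initiation, had 2.54 and 3.76 TPM. Of the helicase cofactors, Eif4h stood at 3.19 and 2.94 TPM and Eif4b at 1.17 and 0.95. Eif4e, the cap-binding protein itself, had 2.13 TPM in both libraries, 1.81-fold and 2.03-fold above Eif4e2, whose product represses translation, and 10.1-fold and 6.66-fold above Eif4e3. With all reads on the transcript with the longest coding stretch, Eif4e exceeded Eif4e2 by 3.50-fold and 4.24-fold.

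The proteins that hold eIF4E inactive had unequal genes. Eif4ebp2 had 3.15 and 2.48 TPM, and Eif4enif1, which encodes the eIF4E transporter, 3.5 and 3.06. Eif4ebp1, the best studied target of mTOR in this family, had 0.3 and 0.9 TPM from 34 and 78 counts, and was below Eif4ebp2 in both libraries by log2 ratios of -3.39 (95% counting interval -3.93 to -2.90) and -1.46 (-1.83 to -1.11). Eif4ebp3 had 1.36 and 0.19 TPM from 110 and 12 counts, so the order of Eif4ebp1 and Eif4ebp3 was opposite in the libraries. Of the distinct 25-base words of Eif4ebp3, 66.7% also occur in another annotated gene, AC115631.1.

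At the late steps, Eif6, whose product keeps the large subunit from joining early, had 2.17 and 1.88 TPM, and Eif5b, the GTPase of subunit joining, 0.44 and 0.48. The order was reversed on protein-coding transcripts alone, where Eif6 had 0.300 and 0.380 TPM and Eif5b 0.440 and 0.430. It was kept, with a smaller gap, with all reads on the longest coding transcript (0.711 and 0.761 against 0.440 and 0.468 TPM). Eif5a, the only known kind of protein to carry hypusine, had 9.41 and 13.04 TPM (11.2 ± 2.57). Its values overlapped those of Eif4g2, so the order of these neighbours is not resolved. Its paralog Eif5a2 was at 0.35 and 0.3 TPM, 26.9-fold and 43.5-fold lower.

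Eef1a1 (ENSMUSG00000037742.10, chromosome 9, 78478449 to 78489151, GRCm38) was the most abundant member in both libraries, at 108.38 and 116.07 TPM (112 ± 5.44; 15742 and 13531 counts). It ranked at position 11 among nuclear protein-coding genes and held 0.468% and 0.430% of their TPM. Its paralog Eef1a2, known from muscle and neurons, had 0 counts in both libraries. Against a floor of 3 counts per library, equal to 0.0116 and 0.0149 TPM, Eef1a1 was at least 9306-fold and at least 7778-fold higher. The exchange complex genes Eef1b2 (7.15 and 9.32 TPM), Eef1g (4.66 and 6.28) and Eef1d (5.14 and 5.76) lay near each other, and Eef1e1, which belongs to the tRNA synthetase complex, was at 0.38 and 0.89. By gene TPM, Eef1a1 exceeded the sum of Eef1b2, Eef1g and Eef1d, without Eef1e1, by 6.39-fold and 5.43-fold.

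Eef2 had nearly the same value in both libraries, 6.29 and 6.34 TPM (6.31 ± 0.0354). The log2 ratio of Eef1a1 to Eef2 was 4.11 (95% counting interval 4.05 to 4.17) in replicate 1 and 4.19 (4.13 to 4.26) in replicate 2, or 17.2-fold and 18.3-fold. Eefsec, the selenocysteine elongation factor, was at 0.18 and 0.2 TPM. The genes that modify elongation factors were low, with 0 of 5 at 1 TPM in both libraries and medians of 0.190 and 0.160. The highest of them, the eEF2 kinase gene Eef2k, had 0.73 and 1.54 TPM; the antisense gene Gm15774 (1.58 and 2.08 TPM) overlaps it, and without knowing whether counting used strand their reads cannot be told apart. The 6 genes of the elongation core (Eef1a1, Eef1a2, Eef1b2, Eef1g, Eef1d and Eef2) summed to 132 and 144 TPM, against 126 and 132 TPM for 41 initiation genes. Both sums rest on a few genes, since the medians were 5.71 and 6.31 TPM for the core and 1.33 and 1.59 for initiation. The order of the sums depends on how reads are placed. On protein-coding transcripts alone, where Eef1a1 had 58.0 and 65.0 TPM, the core summed to less than the initiation genes in both libraries.

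Tpt1 (ENSMUSG00000060126.10, chromosome 14, 75845093 to 75848525), whose product binds eEF1A and is a textbook case of a growth-regulated mRNA, had 75.56 and 87.03 TPM (81.3 ± 8.11; 5365 and 4799 counts) and ranked at position 17. Of its distinct 25-base words, 20.6% occur in other genes, mostly the pseudogene Tpt1-ps3, which had 7.2 and 9.1 TPM. For Eef1a1 that share was 52.0%; the pseudogene sharing most with it, Gm13456, had 0.78 and 1.17 TPM. The deposited standard deviation of the estimate was 0.0381% and 0.0419% of the count for Eef1a1 and 0.531% and 0.606% for Tpt1, so division of reads among copies left little uncertainty in these counts by that measure.

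**Figure D2:**
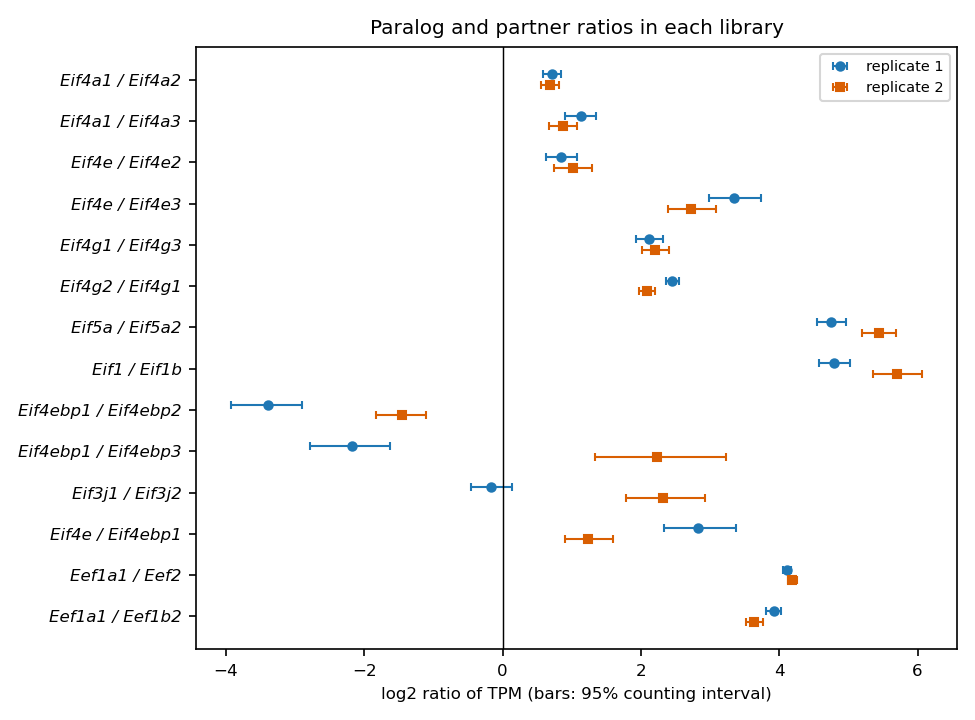
Log2 ratio of TPM for 14 pairs of paralogs or partners in replicate 1 (circles) and replicate 2 (squares); bars are 95% counting intervals, and the line at 0 marks equal TPM. Eif5a over Eif5a2, Eif1 over Eif1b and Eef1a1 over Eef2 lie beyond 4, while the ratio of Eif4ebp1 to Eif4ebp3 changes side between the libraries.

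Of the 15 pairs examined, including Eef1a1 with the silent Eef1a2, 10 differed by more than 2-fold in the same direction in both libraries. The ratio could be computed for 14 of them, and 7 of these moved by more than the spread between the libraries on coding transcripts alone. Intervals and floors cover counting error only, and they treat reads as independent, although PCR copies of a molecule are not. Several intervals of the same ratio did not overlap between the libraries, among them Eif1 to Eif1b (4.57 to 5.02 and 5.36 to 6.07 on the log2 scale). The spread between libraries was then larger than these intervals allow. Whether it exceeded the true counting error cannot be told from intervals that treat reads as independent.

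The transcript tables showed where within each gene the TPM was placed. Transcripts annotated as protein-coding carried 50.5% and 52.1% of the members' TPM, against 75.8% and 77% over all nuclear protein-coding genes. This sum rests on the abundant members: gene by gene, the median coding share was 100% and 99.8% for the 34 members at or above 1 TPM, and 93% and 92.9% for all such genes. Of the 34 members at or above 1 TPM, 20 had over 90% of their TPM on coding transcripts in both libraries (47.9% of all such genes did) and 6 had under 50% in both (14.8% of all such genes). Those 6 were Tpt1, Eef1g, Eif4a2, Eif4a3, Eif6 and Eif2a. Each of the 12 eIF3 subunit genes above 1 TPM belonged to the first kind, as did Eef2, Eif5 and Eif5a.

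Among the 11 members averaging at least 5 TPM, the coding share was lowest in Tpt1. Its transcript Tpt1-204, 661 bases long and annotated as a processed transcript without a reading frame, held 90.75% of the gene's TPM in replicate 1 and 88.16% in replicate 2. The coding transcripts of Tpt1 together held 0.310 TPM in replicate 1 and 0 in replicate 2. Yet 92.8% of the 25-base words of Tpt1-204 are also present in coding transcripts of the gene, so most of its sequence is common to both kinds. With all reads of the gene placed on the transcript with the longest coding stretch, Tpt1-201 of 1169 bases, Tpt1 would stand at 39.3 and 45.1 TPM and remain the second most abundant member.

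Eef1a1 was split more evenly. Its coding transcript Eef1a1-201 (1794 bases) held 53.56% and 55.95% of its TPM, and the 505-base processed transcript Eef1a1-204 held 35.01% and 32.22%, although the counts were 12727 and 11108 on the first and 1852 and 1413 on the second. A short transcript turns few counts into much TPM, because TPM divides counts by length. With all reads on Eef1a1-201 the gene would have 71.8 and 79.1 TPM, 11.4-fold and 12.5-fold above Eef2 in place of 17.2-fold and 18.3-fold. On coding transcripts alone Eef1a1 had 58.0 and 65.0 TPM, 9.23-fold and 10.3-fold above Eef2. Eef1a1 was the most abundant member by all 3 measures.

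Other members followed the same pattern. Eef1g-205, annotated as a retained intron, held 74.14% and 72.2% of the TPM of Eef1g and shares 92.0% of its words with coding transcripts. Eif4a3-203, 466 bases long, held 73.95% and 68.67% of that of Eif4a3. For Eif4a2 the leading transcript was Eif4a2-217, annotated as a target of nonsense-mediated decay, with 49.15% and 37.37% (99.0% of its words shared). Counted on coding transcripts alone, Eif4a1 exceeded Eif4a2 8.05-fold and 5.85-fold, not 1.64-fold and 1.61-fold. With all reads on the longest coding transcript of each gene, that ratio was 1.67 and 1.76.

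**Figure D3:**
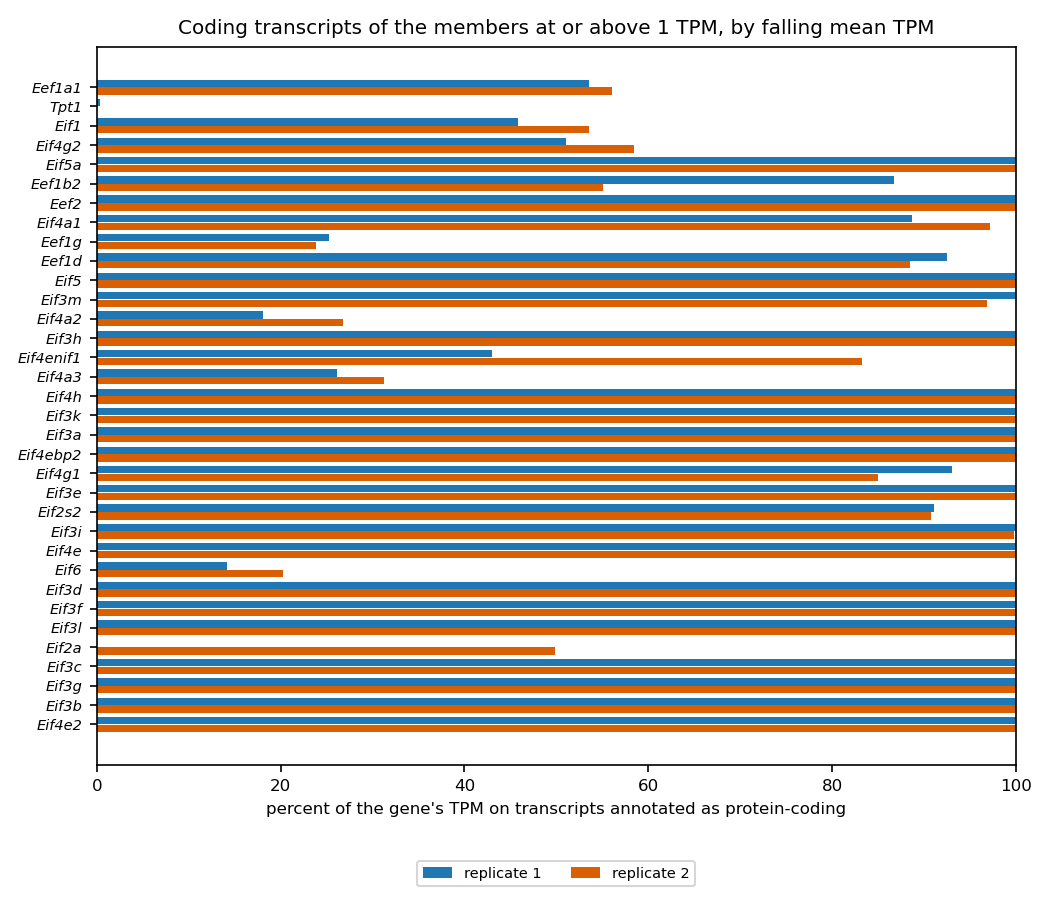
Percent of each gene's TPM placed on transcripts annotated as protein-coding, in replicate 1 (upper bar) and replicate 2 (lower bar), for the 34 members at or above 1 TPM in order of falling mean TPM. The bars are near 0 for Tpt1, under 50% in both libraries for 6 members, and at or near 100% for Eef2, Eif5a, Eif5 and the eIF3 subunits.

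The leading transcript was the same in both libraries for 9 of the 11 members averaging at least 5 TPM, the exceptions being Eif1 and Eef1d. For Eif1 the 383-base processed transcript Eif1-202 led in replicate 1 (51.9% against 43.22% for the coding Eif1-201) and Eif1-201 in replicate 2 (50.95% against 45.25%). Among 54 members with at least 20 counts in both libraries, 41 kept their leading transcript and 13 did not. Eef2k, chosen after its values were seen, shows what this does to a gene's TPM. Its counts were 572 and 470, but in replicate 2 the 655-base Eef2k-208 took 43.23% of the TPM from 35 counts, and the gene's TPM was 2.11-fold higher there.

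The libraries matched closely for the abundant members. On log2(TPM + 1), centred by a shift of -0.05, 1 of the 57 members averaging at least 20 expected counts was over 2-fold apart (0.628% of 9878 such genes were): Eif4ebp3, at 1.03 towards replicate 1. The median of the absolute log2 ratio was 0.16 for the members and 0.14 for all such genes, and 26 members were higher in replicate 1 and 31 in replicate 2. This scale hides differences of genes below 1 TPM. On log2(TPM + 0.1), 4 members were over 2-fold apart (10.4% of all): Eif4ebp1 (-1.21) and Eif3k (-1.12) towards replicate 2, where 4.81% of all genes lay, and Eif3j2 (1.45) and Eif4ebp3 (2.45) towards replicate 1, where 5.57% lay. On expected counts scaled by edgeR TMM or DESeq2 size factors, 7 members were over 2-fold apart (18.2% of all genes by either): these 4 and Eif2b3, Eef1e1 and Eif1b. Across the 57 members, Pearson's r of log2(TPM + 1) between the libraries was 0.979 and Spearman's rho of TPM 0.933; these are across genes, which are not independent.

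On the rescaled TPM, gaps between the libraries were smaller for members with more counts, with Spearman's rho of -0.41 between the absolute log2 ratio and the mean count over 57 members. On log2(TPM + 1), where low members are compressed, rho was -0.03. Again on the rescaled TPM, the 13 members averaging 20 to 100 counts had a median gap of 1.36-fold and a largest of 8.35-fold (Eif4ebp3), the 23 with 100 to 500 counts 1.30-fold and 2.21-fold (Eif1b), and the 21 with at least 500 counts 1.16-fold and 1.81-fold (Eef2k). Summed on the same scale, granulocyte and monocyte markers stood at 22056 TPM in replicate 1 and 25641 in replicate 2, and erythroid markers at 112376 and 110733. Their part in the gaps of single members was not tested.

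**Figure D4:**
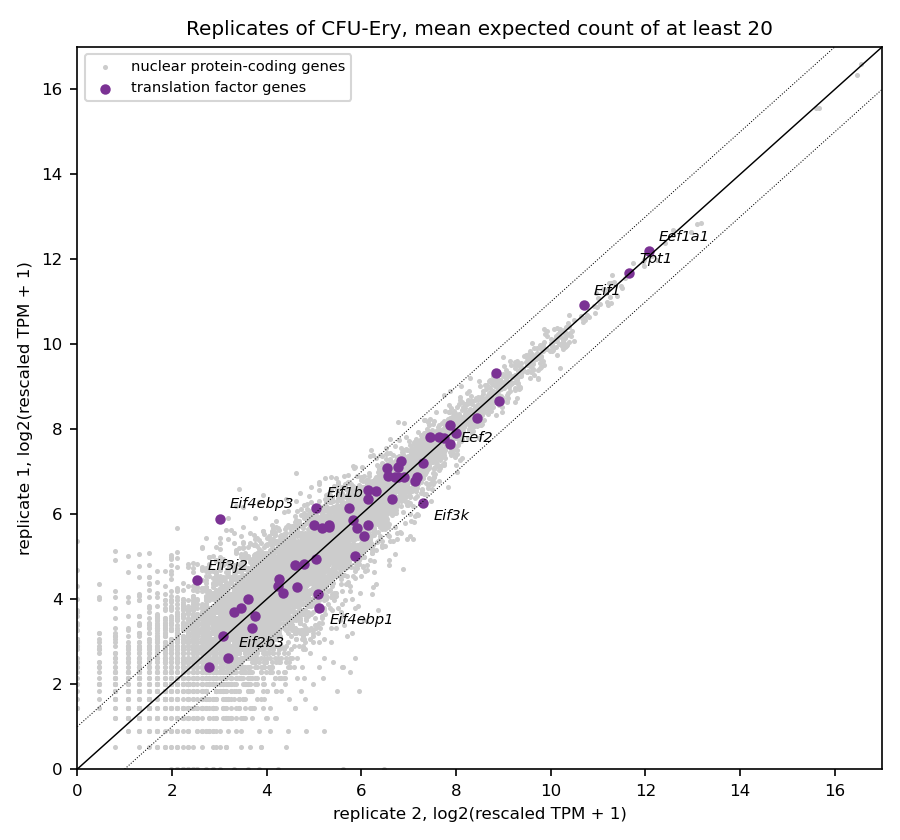
Replicate 1 against replicate 2 on log2(rescaled TPM + 1), for nuclear protein-coding genes (grey) and members (purple) averaging at least 20 expected counts; the solid line marks equal values and the dotted lines 2-fold. Eef1a1, Tpt1 and Eif1 lie on the line at the upper right, and Eif4ebp3, Eif3j2 and Eif4ebp1 are the members lying furthest outside the dotted lines.

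Genes that work with these factors were described from 5 lists. Of the poly(A) and cap regulators, 5 of 9 reached 1 TPM in both libraries, led by the poly(A)-binding protein genes Pabpc1 (54.58 and 53.9 TPM) and Pabpc4 (9.86 and 10.75), with the helicase gene Dhx29 lowest (0.12 and 0.1). Pabpc1 thus lay above Eif1 and below Tpt1 in both libraries. Of the termination and recycling genes, 3 of 8 reached 1 TPM in both libraries. The highest were Gspt1, the release factor eRF3 (2.68 and 3.77 TPM), and Hbs1l, which rescues stalled ribosomes (1.24 and 1.78). The lowest was Gspt2 (0.01 and 0). Among the mTOR and MNK signalling genes, 3 of 9 did, with the eIF4E kinase genes Mknk1 (2.47 and 2.3 TPM) and Mknk2 (1.63 and 2.04) highest and Rptor lowest (0.16 and 0.28).

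The remaining lists were low. None of the 10 mitochondrial translation factor genes reached 1 TPM in both libraries; Mtrf1l had 0.56 and 1.06 TPM, the elongation factor gene Tufm 0.41 and 0.65, and Mrrf 0.01 in both. None of the 9 enzymes of hypusine and diphthamide, the modifications of eIF5A and eEF2, did either; Dph3 had 0.94 and 1.8 TPM, Dhps, which starts hypusine synthesis, 0.57 and 0.47, and Dph1 0 and 0.01. The list medians were 0.235 and 0.320 TPM for the mitochondrial factors and 0.370 and 0.180 for the modifying enzymes, above the 0.01 and 0.02 of all nuclear protein-coding genes.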

How the data were processed

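Gene and transcript tables of 2 CFU-Ery libraries were used, quantified by the authors separately on mm10 with GENCODE M4, per the README deposited with them. Which aligner and quantifier were run, and whether strand was used, is not given in the sources used here. The deposited expected counts estimate the reads of a gene or transcript, per the file headers. The deposited TPM, as maximum likelihood and as posterior mean, is scaled over all entries, and the deposited FPKM was not used in a result, per the file headers. A transcript's share of its gene's TPM is the deposited isoform percent, and the authors' posterior standard deviation of a count is given as a percent of it. Entries that name no gene held 0 and 8 counts and were left out.

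Names and types came from GENCODE M21 (GRCm38), which matched 312 of the members' 318 transcripts. The members, role lists, pairs and pathway lists were chosen with earlier results of these data known. The text could name members at or above 1 TPM, the highest and lowest of each role, both genes of each pair, members under 20 counts, those furthest apart, and the 2 highest and the lowest of each other list. Counting intervals are binomial at 95%, on expected counts. Shared sequence was measured as distinct 25-base words. Expected counts were rounded for edgeR 4.0.16 (TMM) and DESeq2 1.42.0 size factors, used only to scale. The calculation of genes apart was checked on simulated counts of genes averaging at least 5 TPM only. That check does not cover lower levels, where all members over 2-fold apart lay. Alternatives were posterior means, rescaling, other minimums, other pseudocounts, counts in place of TPM, leaving out each library, coding transcripts only and a fixed coding length. Python 3.11.15, pandas 2.3.3, scipy 1.17.1 and R 4.3.3 were used.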

Additional observations from a re-analysis of the deposited data

How the results depend on the processing

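With TPM rescaled to nuclear protein-coding genes, 49 members reached 10 TPM in place of 4 and 58 reached 1 TPM in place of 34, and the median was 57.2 in place of 1.44, since the total is smaller. A minimum of 20 expected counts in both libraries was met by 54 members, and the median of members averaging 20 counts was 1.70. On protein-coding transcripts only, chosen after seeing the data, 2 members reached 10 TPM (Eef1a1 and Eif1), the median was 1.11 and the share of nuclear protein-coding TPM 0.990%. With all reads on the longest coding transcript, also chosen after seeing the data, the median was 1.18. The share was 1.20% by expected counts and 0.523% without Eef1a1, Tpt1 and Eif1, a choice made after seeing the data. Members over 2-fold apart rose from 1 to 4 at a pseudocount of 0.1 and to 7 on expected counts scaled by edgeR TMM or by DESeq2 size factors (18.2% of all genes). Leaving out either library gave 4 to 5 members at 10 TPM, 35 to 38 at 1 TPM, a median of 1.33 to 1.54 and a share of 1.43% to 1.52%. The log2 ratio of Eif4ebp1 to Eif4ebp3 (0.03) was 2.24 without replicate 1, -2.18 without replicate 2 and -0.02 on posterior means, and that of Eif3j1 to Eif3j2 (1.08) was -0.16 without replicate 2; no other ratio changed direction. Of 14 ratios, 7 moved by more than the spread between libraries on coding transcripts, 7 with all reads on the longest coding transcript, 7 on expected counts and 2 on posterior means. No paired analysis was possible because there is 1 group. Depth limits members under 100 counts most, and 22 members had fractional counts from divided reads.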
